A study of Mus musculus with 9 samples.

Results

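The inflammatory chemokine ligands examined here are 10 genes, Ccl1, Ccl2, Ccl3, Ccl4, Ccl5, Ccl12, Ccl17, Ccl22, Cxcl9 and Cxcl10. They were chosen by symbol from the 41128 genes of the count table, and all 10 were found. Of these, 9 passed edgeR's filter on low counts and were tested among 14057 genes, and Ccl17 did not pass. Their levels were read in lymphomas of 2 genotypes, compared between genotypes, and set against Cd3e, a subunit of the T-cell receptor complex, and Csf1r, the receptor of the macrophage growth factor.

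RNA was sequenced from 3 Bcl6 and 6 Smc3/Bcl6 mouse lymphomas, 1 library per tumor. Both genotypes carry IµBcl6, a transgene that holds Bcl6 on in the B lineage, together with Cγ1-Cre, which acts in B cells that respond in the germinal center. Bcl6 mice have both Smc3 alleles (Smc3 wt/wt) and Smc3/Bcl6 mice have lost 1 of them (Smc3 wt/-), so the deletion is limited to B cells of this lineage, and T cells, macrophages and stroma of the node keep both. No source used here gives the age of the animals or says that the tumor cells were sorted before RNA extraction. Replicate 1 of either genotype is labeled as coming from the mesenteric lymph node, and the remaining 7 tumors only as lymph node, whereas the study describes mesenteric nodes as the source for both genotypes, so the label may not mark a difference in site. Libraries held 10156728 to 17774577 counts. Values are CPM, counts relative to the library total after scaling by edgeR's TMM factors, where 3 counts correspond to 0.156 to 0.317 CPM depending on the library.

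Chemokines are small secreted proteins that guide leukocytes through G protein-coupled receptors. Ccl3, Ccl4 and Ccl5 draw T cells, NK cells and monocytes, and Ccl3 and Ccl5 act in part through Ccr1. Ccl2 and Ccl12 act through Ccr2 on monocytes, Ccl17 and Ccl22 through Ccr4 on T helper and regulatory T cells, Ccl1 through Ccr8, and Cxcl9 and Cxcl10 through Cxcr3 on activated T cells. Cxcl9 and Cxcl10 are textbook targets of interferon gamma, which T cells and NK cells secrete, while Ccl5 is made by cytotoxic T cells themselves, and Ccl17 and Ccl22 are known products of dendritic cells and macrophages. Ccl3 and Ccl4 are made by many activated leukocytes, B cells included. These are background facts and were not measured here.

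The genes lie in 4 groups on GRCm38. Ccl1, Ccl2 and Ccl12 sit together on chromosome 11, and Ccl3, Ccl4 and Ccl5 lie farther along the same chromosome. Ccl17 and Ccl22 are neighbors on chromosome 8, and Cxcl9 and Cxcl10 on chromosome 5, where their starts are 25291 bases apart. The upstream sequences of 7 of the 10 genes were found in the RefSeq promoter table (GRCm38.p6), and Ccl2, Ccl4 and Ccl5 were not. The 250 bases before the annotated start are shown for 3 ligands whose levels rose and fell together in these tumors, Cxcl9, Cxcl10 and Ccl12, and for Ccl3, whose level did so less closely. Capitals mark matches, on either strand, to GAAANNGAA (the core of the interferon-stimulated response element), to TTCNNNGAA (the core of a STAT site) or to the κB consensus.
Cxcl9 (chr5:92328080-92328329, minus strand): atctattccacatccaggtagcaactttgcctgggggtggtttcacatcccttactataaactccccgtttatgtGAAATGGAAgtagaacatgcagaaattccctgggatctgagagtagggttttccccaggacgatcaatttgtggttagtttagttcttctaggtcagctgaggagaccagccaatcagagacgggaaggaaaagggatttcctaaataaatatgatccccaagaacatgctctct
Cxcl10 (chr5:92348890-92349139, minus strand): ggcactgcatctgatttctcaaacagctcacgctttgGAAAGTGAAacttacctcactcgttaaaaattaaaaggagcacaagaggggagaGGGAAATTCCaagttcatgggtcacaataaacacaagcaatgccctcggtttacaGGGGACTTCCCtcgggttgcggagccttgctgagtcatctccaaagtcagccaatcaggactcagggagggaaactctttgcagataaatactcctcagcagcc
Ccl12 (chr11:82101595-82101844, plus strand): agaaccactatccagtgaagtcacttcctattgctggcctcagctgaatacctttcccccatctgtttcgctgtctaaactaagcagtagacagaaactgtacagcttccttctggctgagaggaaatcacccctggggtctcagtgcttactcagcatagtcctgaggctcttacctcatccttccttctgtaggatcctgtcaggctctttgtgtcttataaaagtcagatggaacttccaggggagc
Ccl3 (chr11:83649379-83649628, minus strand): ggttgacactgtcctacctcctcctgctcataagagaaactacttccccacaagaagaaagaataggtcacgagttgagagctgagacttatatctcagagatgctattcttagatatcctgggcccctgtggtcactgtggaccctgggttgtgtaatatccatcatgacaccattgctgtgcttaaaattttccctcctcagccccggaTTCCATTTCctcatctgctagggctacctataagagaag

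Cxcl9 held 1 match to the interferon-stimulated response element core, 175 to 167 bases before its start. Cxcl10 held 1, at 213 to 205 bases, together with 3 matches to the κB consensus, of which the pair at 104 to 94 bases overlap. Ccl12 and Ccl22 held 0 matches to the motifs searched, Ccl3 held 1 response element core at 39 to 31 bases, and Ccl17 held 1 STAT core at 99 to 91 bases. Ccl1 held a response element core and 2 overlapping κB matches. Of 32851 promoter windows of this length, 7.13% held the response element core, 7.02% the STAT core and 7.25% the κB consensus, and a match is a run of letters, not a site shown to be bound.

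Smc3, the targeted gene, had 104 ± 19.2 CPM in Bcl6 (SD, n = 3) and 91.2 ± 31.9 CPM in Smc3/Bcl6 tumors (SD, n = 6), and 5 of the 6 Smc3/Bcl6 tumors lay between 89.6 and 111 CPM, within the range of the Bcl6 tumors. The log2 fold change was -0.19 (SE 0.38, edgeR adjusted p = 1.00), so the level of Smc3 in these libraries did not separate the genotypes. Smc3/Bcl6 tumor 2, with 27.9 CPM of Smc3, stood apart also in its length profile. With genes split into 5 groups by exon length, its shortest group lay at a median of 1.05 log2 units above the mean of the other tumors and its longest group at -1.16, while in the other 8 tumors the shortest group lay between -0.27 and 0.07. The principal transcripts of 7 of the 9 tested ligands are no longer than 2059 bases, the upper limit of that shortest group. In this tumor Ccl12 was 4.203, Ccl5 3.66, Ccl4 3.36 and Ccl3 3.04 log2 units above the mean of the others, and the part of its length profile in those values was not tested. The calls that change without it, and the ligand values that moved most, are given with and without it.

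Markers of B cells (8 genes) summed to 2761 to 10683 CPM and were present in every tumor. The other cells of the node varied widely. The 12 T-cell markers summed to 437 to 3150.5 CPM in Bcl6 and 140.3 to 3299 CPM in Smc3/Bcl6 tumors, the 12 macrophage markers to 435 to 7962 and 269 to 8473 CPM, and the 8 markers of cytotoxic lymphocytes and NK cells to 106 to 1857 and 37.8 to 2759 CPM. None of these markers was at 0 in all tumors. Cd3e itself was 21.5, 453 and 322 CPM in Bcl6 tumors 1 to 3 and 5.13, 205, 383, 18.9, 142 and 22.8 CPM in Smc3/Bcl6 tumors 1 to 6. It therefore fell into 2 separate sets of tumors of both genotypes, Bcl6 2 and 3 with Smc3/Bcl6 2, 3 and 5 at 142 CPM or more, and the other 4 tumors at 22.8 CPM or less. Csf1r was 81.9, 117 and 497 CPM in Bcl6 and 10.7, 99.8, 360.4, 719, 262 and 374 CPM in Smc3/Bcl6 tumors. Smc3/Bcl6 tumor 1 was the lowest for both genes, and in bulk RNA fewer cells of a type and less RNA per cell cannot be told apart.

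None of the ligands was found to differ between genotypes. At the cut-offs used by the study, an unadjusted p under 0.1 with a log2 fold change of more than 0.56 in either direction, edgeR's quasi-likelihood test called 0 of the 9 tested ligands, against 2.15% of all genes tested (302 of 14057). At an adjusted p below 0.05 it called 0 ligands and 0% of all genes. At an unadjusted p below 0.05 it called 0 ligands and 79 of all genes. For no ligand did the 3 Bcl6 tumors lie wholly above or below the 6 Smc3/Bcl6 tumors, which held for 0.484% of all genes. Log2 fold changes (Smc3/Bcl6 minus Bcl6) ran from -0.50 (standard error, SE, 1.3998) for Ccl5 to 1.72 (SE 1.34) for Ccl1, with 5 of 9 above 0 and a median of 0.09, beside 0.06 over all genes. The SE of a ligand was large, with a median of 1.25 against 0.46 over all genes.

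**Figure D1:**
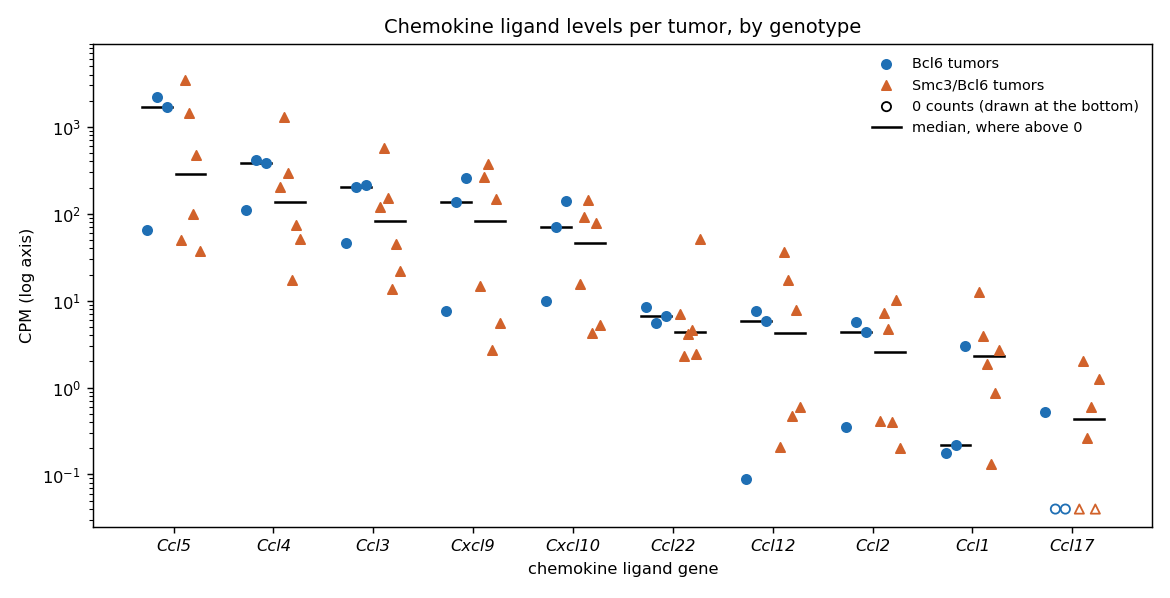
Level of each ligand in each tumor, with CPM on a log axis, Bcl6 tumors as blue circles (n = 3), Smc3/Bcl6 tumors as orange triangles (n = 6) the median of each genotype as a bar where it is above 0, and open symbols for 0 counts. The genotypes overlap for all 10 ligands, and the spread within a genotype reaches 174-fold for Ccl12 in Smc3/Bcl6 tumors, where the lowest tumor held 3 counts, and 136-fold for Cxcl9.

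The call of 0 depended on the fit. DESeq2 called 0 ligands and 3.15% of all genes, whereas limma with a quality weight per tumor called 5 of 9 and 11.7% of all genes. The 5 ligands were Ccl1 at 2.35, and Ccl2, Ccl3, Ccl4 and Ccl5 at -2.07, -1.87, -1.96 and -3.19 on the log2 scale. None of the 5 had an adjusted p below 0.563 in limma. Without Smc3/Bcl6 tumor 2, edgeR also called 0 ligands, beside 3.82% of all genes. The log2 fold changes were then -1.14 for Ccl3, -1.26 for Ccl4 and -1.63 for Ccl5. Those of Ccl12, Cxcl9, Cxcl10 and Ccl2 became 0.21, -0.34, -0.60 and -0.13. With replicates 1 to 3 of the genotypes paired by number (6 tumors), edgeR called 3 ligands, all higher in Smc3/Bcl6 tumors, Ccl12 at 1.74 (SE 0.52), Ccl1 at 3.18 (SE 1.62) and Cxcl9 at 0.78 (SE 0.34), beside 2.24% of all genes, and none had an adjusted p below 0.98. With Cd3e and Csf1r in the fit only Ccl12 was called, at 2.61 (SE 0.59, edgeR unadjusted p = 0.00176, adjusted p = 0.992), beside 3.5% of all genes.

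Ccl5, Ccl4 and Ccl3 were the most abundant. Per kilobase of principal transcript, Ccl5 had a median of 891 CPM per kb over the 9 tumors, Ccl4 305 and Ccl3 157, followed by Cxcl10 at 64.8, Cxcl9 at 47.4 and Ccl12 at 10.9, with Ccl2, Ccl1, Ccl22 and Ccl17 at 5.34 or less. Ranges over tumors overlapped between neighbors in this order. Together Ccl3, Ccl4 and Ccl5 made up 62.4% to 92.9% of the summed CPM of the 10 ligands in a tumor. Ccl5 alone was the leading ligand in 6 tumors, Ccl4 in Bcl6 1 and Smc3/Bcl6 1, and Ccl22 in Smc3/Bcl6 6.

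Ccl5 (ENSMUSG00000035042.2, chromosome 11, 83525778 to 83530518, minus strand) was 64.9, 2198 and 1678 CPM in Bcl6 tumors 1 to 3. In the Smc3/Bcl6 tumors it ranged from 37.7 CPM in tumor 6 to 3450.4 CPM in tumor 2, with a median of 286. The 5 tumors with 142 CPM or more of Cd3e had 474 to 3450.4 CPM of Ccl5 and the other 4 had 37.7 to 98.6. The log2 fold change between genotypes was -0.50 (SE 1.3998, edgeR adjusted p = 1.00), and both genotypes held tumors at either end. The 3 genes whose log2 CPM was most like that of Ccl5 over the 9 tumors, among 12963 tested genes with a mean of at least 1 CPM, were Cd3d (r = 0.99), Cd8b1 (r = 0.99), both T-cell surface genes, and Sh2d2a (r = 0.99), an adaptor of T cells. All 3 share with Ccl5 the libraries and their scaling. This r, like those given for the other ligands, is a description of 9 tumors that fall into separate sets by Cd3e, and a high value can come from the gap between the sets alone.

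Ccl4 (ENSMUSG00000018930.3, 83662584 to 83664683, plus strand) was 110.5, 419 and 389 CPM in Bcl6 tumors 1 to 3. It was 201, 1317, 298, 17.3, 74.3 and 51.1 CPM in Smc3/Bcl6 tumors 1 to 6. Its neighbor Ccl3 (ENSMUSG00000000982.5, 83647844 to 83649355, minus strand) was 46.6, 202 and 216 CPM in Bcl6 and 120.3, 567, 153, 13.5, 45.3 and 22.1 CPM in Smc3/Bcl6 tumors. Both were highest in Smc3/Bcl6 2 and lowest in Smc3/Bcl6 4. Smc3/Bcl6 1, the tumor with the least Cd3e and Csf1r, had more of both than Smc3/Bcl6 5, which had 142 CPM of Cd3e. The gene most like Ccl3 was Ccl4 (r = 0.99), and the next for both was Acot7, an acyl-CoA thioesterase (r = 0.97 with each). Log2 fold changes were 0.09 (SE 1.13) for Ccl4 and -0.01 (SE 1.05) for Ccl3.

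Ccl2 and Ccl12, the ligands of Ccr2, were far lower. Ccl2 (ENSMUSG00000035385.5, 82035571 to 82037453, plus strand) was 0.352, 5.71 and 4.34 CPM in Bcl6 and 0.416, 7.29, 4.69, 0.399, 10.2 and 0.200 CPM in Smc3/Bcl6 tumors, with a log2 fold change of 0.15 (SE 1.25). Ccl12 (ENSMUSG00000035352.3, 82101845 to 82103400, plus strand) was 0.0881, 7.60 and 5.85 CPM in Bcl6 and 0.208, 36.2, 17.2, 0.465, 7.81 and 0.599 CPM in Smc3/Bcl6 tumors, with 1.20 (SE 1.5995). The 4 tumors with little Cd3e had 3 to 6 counts of Ccl2 and 1 to 9 counts of Ccl12, so their values are near the level of 3 counts. In the other 5 tumors Ccl2 had 46 to 129 counts and Ccl12 62 to 343. The genes most like Ccl2 were Sncg (r = 0.99), a synuclein, Lyz2, the lysozyme of macrophages and neutrophils (r = 0.97), and Trbv2, a T-cell receptor segment (r = 0.97). For Ccl12 they were 1500009L16Rik, the chemokine ligand Ccl8 and the adenylate kinase Ak4, each at r = 0.97.

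Cxcl9 and Cxcl10, the interferon-induced ligands of Cxcr3, moved as a pair. Cxcl9 (ENSMUSG00000029417.8, chromosome 5, 92321347 to 92328079, minus strand) was 7.57, 137 and 261 CPM in Bcl6 and 14.9, 267, 369.7, 2.72, 148 and 5.52 CPM in Smc3/Bcl6 tumors. Cxcl10 (ENSMUSG00000034855.8, 92346638 to 92348882, minus strand) was 9.95, 70.8 and 142 CPM in Bcl6 and 15.6, 90.8, 144, 4.25, 77.7 and 5.26 CPM in Smc3/Bcl6 tumors. Both were lowest in Smc3/Bcl6 4, which had the most Csf1r, and highest in Smc3/Bcl6 3. Their r was 0.99 over the 9 tumors. Log2 fold changes were -0.00 (SE 1.43) for Cxcl9 and -0.40 (SE 1.10) for Cxcl10. Beside each other, the genes most like Cxcl9 were the fatty acid binding protein Fabp5 (r = 1.00) and Ly6i (r = 0.99), and those most like Cxcl10 were Batf2 and Irg1 (both r = 0.99), a transcription factor and a metabolic enzyme induced by interferon in macrophages. Of the annotated exon bases of Cxcl10, 5.91% overlap Art3, and reads there could not be assigned without strand.

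Ccl22 (ENSMUSG00000031779.3, chromosome 8, 94745590 to 94751699, plus strand), a ligand of Ccr4, followed another order. It was 8.37, 5.55 and 6.70 CPM in Bcl6 tumors and 6.996, 2.32, 4.17, 4.58, 2.44 and 51.4 CPM in Smc3/Bcl6 tumors. All tumors but Smc3/Bcl6 6 lay between 2.32 and 8.37 CPM. The log2 fold change of 0.80 (SE 1.02) became -0.74 (SE 0.47, unadjusted p = 0.154 from edgeR's quasi-likelihood test) without that tumor. The genes most like Ccl22 were Igsf9 (r = 0.95), Rps6ka4 (r = 0.92) and Mir8112 (r = 0.91). Ccl17 (ENSMUSG00000031780.1, 94810453 to 94812036, plus strand), its neighbor and also a Ccr4 ligand, was near the limit of detection. It had 6, 0 and 0 counts in Bcl6 and 0, 19, 5, 9, 0 and 19 counts in Smc3/Bcl6 tumors, and 0 counts allow up to 0.162 to 0.283 CPM in those libraries. Its mean log2 CPM was -2.07 in Bcl6 and -0.96 in Smc3/Bcl6 tumors (two-sided exact permutation test over 84 splits, p = 0.345).

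Ccl1 (ENSMUSG00000020702.8, 82176657 to 82179812, minus strand), a ligand of Ccr8, was 0.176, 0.216 and 3.02 CPM in Bcl6 and 12.7, 3.91, 1.88, 0.133, 0.867 and 2.73 CPM in Smc3/Bcl6 tumors. It was highest in Smc3/Bcl6 1, where Cd3e and Csf1r were lowest. The log2 fold change was 1.72 (SE 1.34, unadjusted p = 0.227, adjusted p = 1.00, edgeR). It was 0.75 without Smc3/Bcl6 1 and 4.17 without Bcl6 3 (unadjusted p = 0.0333, edgeR), when the remaining Bcl6 tumors held 2 and 4 counts. Among the genes most like Ccl1 were Cpne2 (r = 0.95), a copine, and Acad8 (r = 0.91), a mitochondrial dehydrogenase.

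Which ligands follow T-cell genes was examined by the slope of each on the log2 CPM of Cd3e, with genotype in the fit. A slope of 1 means that a ligand doubles when Cd3e doubles. At an adjusted p below 0.05, edgeR called 4 of the 9 tested ligands with a positive slope, beside 2.23% of all genes (314 of 14057). The slope was 1.36 (SE 0.16, adjusted p = 0.00595) for Ccl12 and 1.07 (SE 0.17, adjusted p = 0.0174) for Ccl5. It was 0.90 (SE 0.19, adjusted p = 0.0457) for Ccl2 and 0.94 (SE 0.20, adjusted p = 0.0478) for Cxcl9. Cxcl10 had 0.67 (SE 0.16, adjusted p = 0.0684), above the threshold. Ccl4 and Ccl3 had 0.42 (SE 0.21) and 0.38 (SE 0.20), and Ccl1 and Ccl22 had slopes below 0, -0.21 (SE 0.26) and -0.41 (SE 0.25), all with adjusted p of 0.571 or more. The slopes of Ccl4 and Ccl3 depended on single tumors, being 0.81 (SE 0.29) and 0.82 (SE 0.25) without Smc3/Bcl6 1 and 0.19 (SE 0.16) and 0.18 (SE 0.17) without Smc3/Bcl6 2. Without Smc3/Bcl6 1 the slopes of Cxcl9 and Cxcl10 were 1.43 (SE 0.19) and 1.05 (SE 0.15), both called, and that of Ccl1 was 0.37 (SE 0.34). The median slope of the ligands was 0.67, beside -0.01 over all genes.

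**Figure D2:**
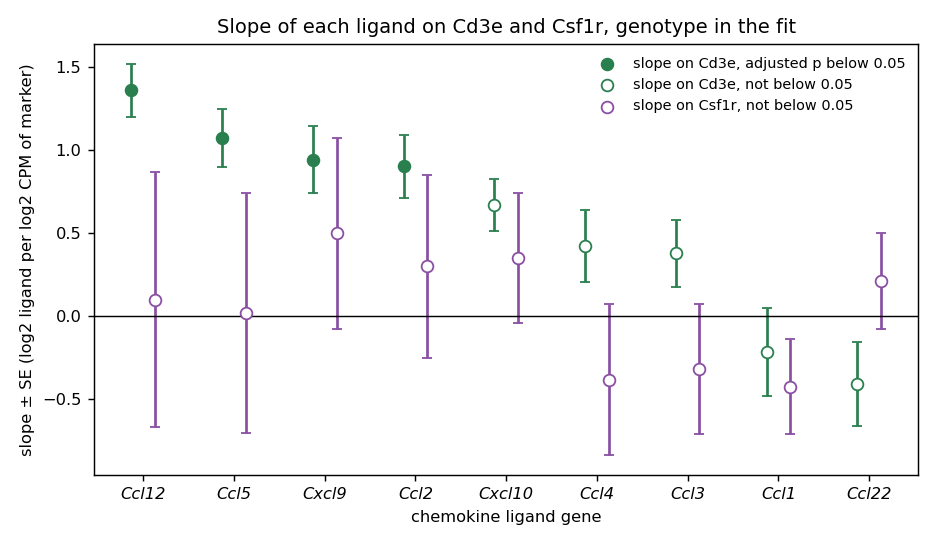
Slope of each tested ligand on the log2 CPM of Cd3e (green) and of Csf1r (purple) in edgeR fits with genotype, with bars of 1 SE over 9 tumors and filled points for an adjusted p below 0.05. Ccl12, Ccl5, Cxcl9 and Ccl2 are filled for Cd3e and no ligand is filled for Csf1r.

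These slopes rest on the separation of the tumors into those with and those without much Cd3e, so no correlation with Cd3e over the 9 tumors is given. With a term for the 2 sets, the slopes within them were 0.25 (SE 0.46) for Ccl5, 0.61 (SE 0.43) for Ccl12, -0.41 (SE 0.34) for Cxcl9 and -0.42 (SE 0.34) for Ccl2, and 0 ligands and 0 genes were called. With the replicate number as a block (6 tumors, 1 residual degree of freedom in this fit), 0 ligands and 0.284% of genes were called. With the tissue label as a covariate, 0 ligands and 0.0569% of genes were called, while the slopes of the 4 ligands were larger, at 1.31 (SE 0.30) for Ccl5, 1.49 (SE 0.27, adjusted p = 0.0822) for Ccl12, 1.24 (SE 0.34) for Ccl2 and 1.67 (SE 0.31, adjusted p = 0.0944) for Cxcl9. Ccl12 was called with each tumor left out in turn and Ccl5 in all but the fit without Bcl6 1, whereas Ccl2 and Cxcl9 were lost in most of them, and without Smc3/Bcl6 2 only Ccl5 and Ccl12 were called. With Csf1r added to the fit, 7 ligands were called, the 4 above with Ccl3, Ccl4 and Cxcl10, beside 2.08% of all genes.

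**Figure D3:**
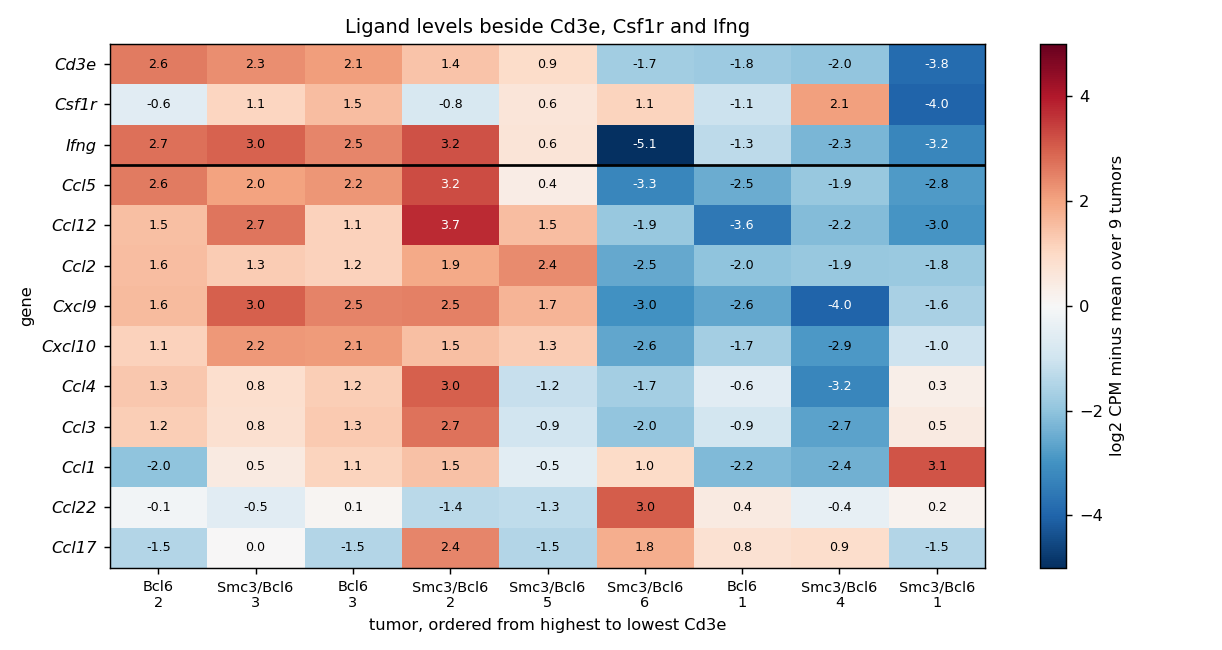
Log2 CPM of Cd3e, Csf1r, Ifng and the 10 ligands in each tumor, minus the gene's mean over the 9 tumors, with tumors ordered from highest to lowest Cd3e. Ccl5, Ccl12, Ccl2, Cxcl9 and Cxcl10 are above their mean in the 5 tumors on the left and below it in the 4 on the right, while Ccl1 peaks in Smc3/Bcl6 1 and Ccl22 in Smc3/Bcl6 6.

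**Figure D4:**
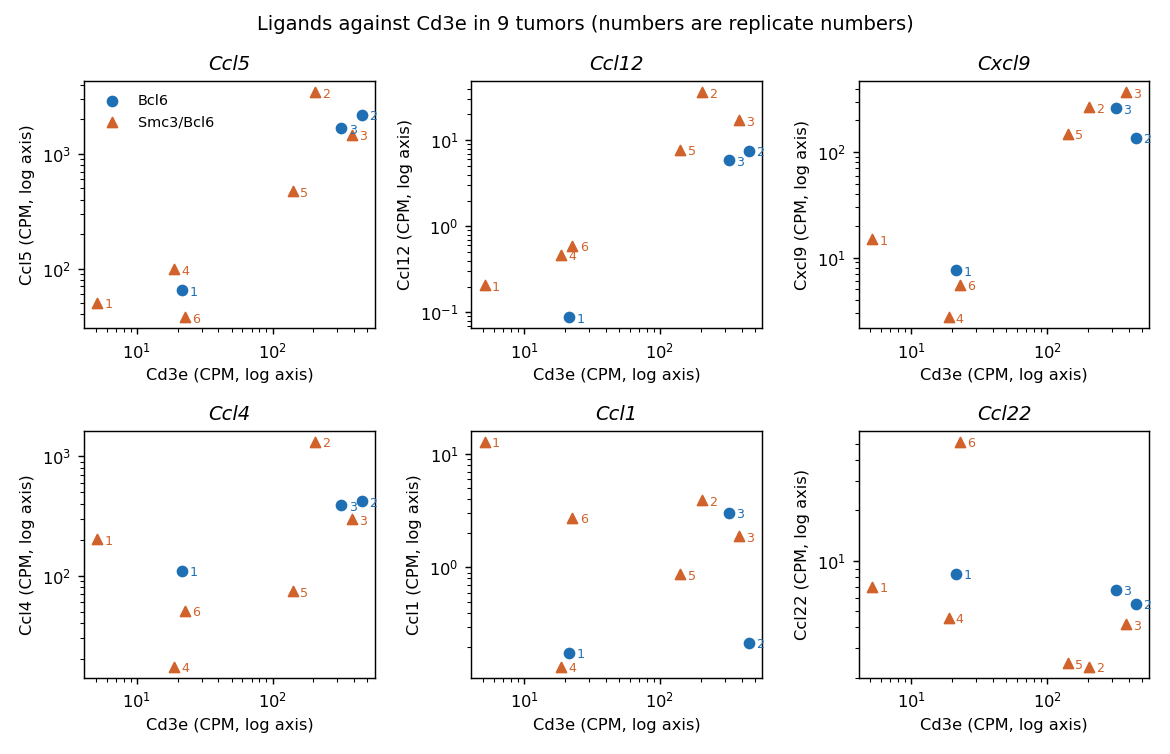
CPM of 6 ligands against CPM of Cd3e, both on log axes, for Bcl6 (blue circles, n = 3) and Smc3/Bcl6 tumors (orange triangles, n = 6), labeled by replicate number. The tumors form 2 groups along Cd3e, at 22.8 CPM or less and at 142 CPM or more, which separate Ccl5, Ccl12 and Cxcl9 but not Ccl4, Ccl1 or Ccl22.

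Some markers of other cells changed with Cd3e as well. By the same test, which called 2.23% of all genes, 11 of 12 T-cell markers were called, which includes Cd3e itself, and 4 of 8 markers of cytotoxic lymphocytes and NK cells, among them Gzmb (1.16, SE 0.16) and Nkg7 (1.12, SE 0.17). Lyz2 (1.14, SE 0.18) and Cd68 (0.38, SE 0.08) were called among the 12 macrophage markers. Slopes of Cd163, Vsig4 and Emr1 were below 0, at -1.56 (SE 0.79), -1.47 (SE 0.73) and -0.22 (SE 0.30). Csf1r had 0.13 (SE 0.28), and the rest of the macrophage markers had slopes above 0 without a call. Itgax (0.54, SE 0.10) and Xcr1 (0.54, SE 0.11) were called among the 10 dendritic cell markers. Of the others, 0 of 8 B-cell, 0 of 6 neutrophil and 0 of 6 stromal markers were called. The summed macrophage markers ranged from 3581 to 8473 CPM in the 5 tumors with 142 CPM or more of Cd3e and from 269 to 2585 CPM in the other 4. Much of this sum is Lyz2, with means of 2674 CPM in Bcl6 and 2770 CPM in Smc3/Bcl6 tumors. Csf1r was highest, at 719 CPM, in Smc3/Bcl6 4, a tumor with little Cd3e. The cell that made each ligand was therefore not tested by these slopes.

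No ligand was found to follow Csf1r. With Csf1r in place of Cd3e, 0 of the 9 ligands and 0.00711% of all genes were called, that is Csf1r alone, and 0 ligands had an unadjusted p below 0.05, against 859 of all genes. Slopes ran from -0.42 (SE 0.29) for Ccl1 to 0.50 (SE 0.57) for Cxcl9. DESeq2 also called 0 ligands, beside 2.02% of all genes, and limma 0 ligands, beside 0.00711% of all genes. Over the 9 tumors, Pearson's r of log2 CPM with Csf1r ranged from -0.43 (Ccl1) to 0.27 (Ccl12). Across these 9 relations the smallest exact two-sided permutation p was 0.251 for r and 0.313 for Spearman's rho (Ccl4, rho = -0.38), and none was adjusted.

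Without Bcl6 1 and Smc3/Bcl6 1, which are the 2 tumors farthest from the median of Csf1r and also the 2 labeled as mesenteric lymph node, the r of 8 ligands was negative. It was -0.72 for Ccl4 (exact permutation p = 0.0738), -0.69 for Ccl12 (p = 0.0829, exact) and -0.59 for Ccl2 (p = 0.126, exact). Spearman's rho was -0.82 for Ccl12 (exact p = 0.0341) and -0.79 for Ccl2 (exact p = 0.0480). Those 2 were the smallest exact p-values over all ligands in this subset. No p-value of these correlations, here or within the 6 Smc3/Bcl6 tumors, was adjusted. Ccl22 alone had a positive r of 0.31. Within the 6 Smc3/Bcl6 tumors r was -0.85 for Ccl1 (exact p = 0.0278, rho = -0.77), which rests on Smc3/Bcl6 1 and 4 at its ends, and between -0.53 and 0.20 for the other 8. The 3 Bcl6 tumors were too few for a correlation. With the mean of the 12 macrophage markers in place of Csf1r, 0 ligands and 0 of all genes were called, so this fit says little about the ligands.

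Ratios of neighboring ligands within a tumor do not depend on the scaling of the library. Ccl4 had 1.29 to 2.37 times the counts of Ccl3 (median 1.94), a spread of 0.29 log2 units (SD, n = 9) against 1.87 and 1.74 for the genes singly. Cxcl9 had 0.641 to 2.95 times the counts of Cxcl10, a spread of 0.79 against 2.77 and 2.04. Ccl12 had 0.25 to 4.97 times the counts of Ccl2, a spread of 1.28 against 2.66 and 2.00. In the 4 tumors with little Cd3e this ratio rests on 1 to 9 counts of Ccl12 and 3 to 6 of Ccl2, so counting error adds to its spread. The offsets added to counts differ between the ratios and the single genes, which matters at so few counts. The genotypes did not differ detectably in any of the 3 ratios, with mean log2 ratios of 1.05 and 0.87 for Ccl4 to Ccl3 (two-sided exact permutation test over 84 splits, p = 0.440), 0.48 and 0.54 for Cxcl9 to Cxcl10 (exact p = 0.952) and -0.25 and 0.76 for Ccl12 to Ccl2 (exact p = 0.310), in Bcl6 and Smc3/Bcl6 tumors. Set against Cd3e, Ccl5 had 1.66 to 16.9 times its counts, with the highest ratio in Smc3/Bcl6 2 (mean log2 ratio 2.08 in Bcl6 and 2.36 in Smc3/Bcl6 tumors, exact permutation p = 0.702). In Smc3/Bcl6 2 the summed T-cell markers were the highest of all tumors (3299 CPM), while Cd3e was 205 CPM. Its shortest group of genes was also 1.05 log2 units high, and the part of this length profile in the ratio was not tested. The smallest p that this design allows is 0.0119. The ratio of Cxcl9 to Cxcl10 was 1.84 or more in the 5 tumors with more Cd3e and 1.05 or less in the other 4.

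**Figure D5:**
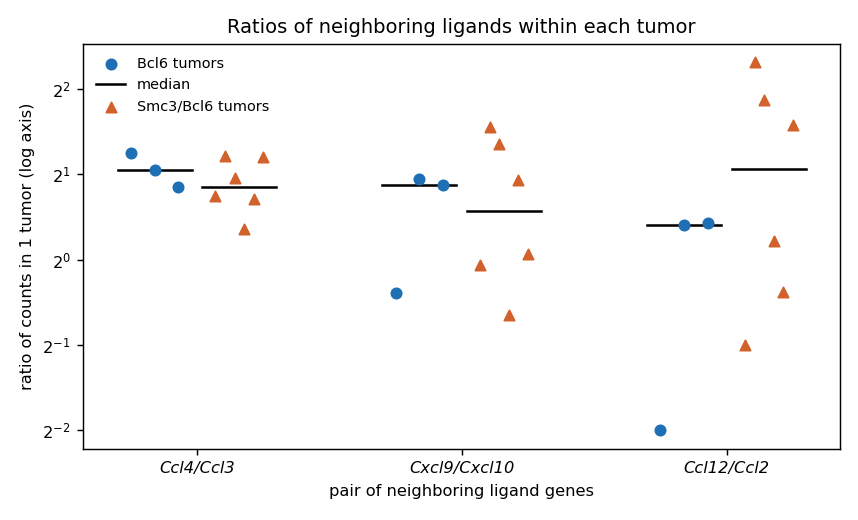
Ratio of the counts of neighboring ligands in each tumor on a log axis of base 2, with Bcl6 tumors as blue circles (n = 3), Smc3/Bcl6 tumors as orange triangles (n = 6) and medians as bars. Ccl4 to Ccl3 stays between 1.29 and 2.37, and Ccl12 to Ccl2 spreads from 0.25, which is 1 count over 4, to 4.97.

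Pairs of ligands were otherwise alike in 2 blocks. Among Ccl2, Ccl5, Ccl12, Cxcl9 and Cxcl10 Pearson's r over the 9 tumors was 0.87 or more for every pair, on chromosomes 5 and 11 alike. Ccl3 and Ccl4 had r of 0.62 to 0.81 with these 5. Ccl1 had r of 0.44 or less with every ligand, also with Ccl12, 74812 bases away by their starts. Ccl22 had negative r with 7 of the 8 others, down to -0.70 with Ccl2. These values describe 9 libraries that share the scaling, the gap between the sets of tumors by Cd3e and the length profile of Smc3/Bcl6 2.

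Among the receptors, 4 of 20 tested chemokine receptor genes of 21 listed were called with a positive slope on Cd3e, beside 2.23% of all genes, and 0 were called between genotypes or on Csf1r. Those called included Ccr2 (0.73, SE 0.11, edgeR adjusted p = 0.0134), Cxcr6 (1.13, SE 0.17) and Xcr1. Ccr2, the receptor of Ccl2 and Ccl12, was 9.33 to 195.5 CPM in Bcl6 and 3.81 to 99.3 CPM in Smc3/Bcl6 tumors. Ccr8, the receptor of Ccl1, had a slope of 1.11 (SE 0.30, adjusted p = 0.121) and was at 0.485 CPM in Smc3/Bcl6 1, where Ccl1 was highest. Ccr1 had a slope of 0.42 (SE 0.14, adjusted p = 0.228), ranging from 6.23 to 92.3 CPM. Cxcr3, the receptor of Cxcl9 and Cxcl10, was 15.8 to 123 CPM in Bcl6 and 37.5 to 196 CPM in Smc3/Bcl6 tumors and had a slope of 0.17 (SE 0.17, adjusted p = 0.737), with its highest level in Smc3/Bcl6 6, where Cxcl9 was 5.52 CPM. Ccr4 stayed between 0.133 and 3.81 CPM, with a slope of -0.06 (SE 0.17).

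Of 14 inducing cytokines and transcription factors listed, 12 were tested, 0 were called between genotypes and 1 was called on Cd3e, again beside 2.23% of all genes. This was Ifng, interferon gamma, with a slope of 1.15 (SE 0.20, edgeR adjusted p = 0.0225). It was 5.37, 92.0 and 75.4 CPM in Bcl6 and 1.32, 124, 107, 2.66, 21.4 and 0.266 CPM in Smc3/Bcl6 tumors, high in the same 5 tumors as Cxcl9. Of 24 other chemokine ligands, 15 were tested, 0 were called between genotypes and 2 were called on Cd3e (2.23% of all genes), Ccl8 (1.70, SE 0.28, adjusted p = 0.0183), which lies beside Ccl12 on chromosome 11, and Cxcl16 (0.91, SE 0.13, adjusted p = 0.0121), the ligand of Cxcr6.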

How the data were processed

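The authors ran the nf-core RNA-seq workflow (STAR alignment against mm10 with Gencode annotation) and deposited raw featureCounts counts per gene, 1 library per tumor. The submitters' processing notes also name DESeq2 1.28.1. Strand setting is not given in the sources used here. Identifiers were matched to GENCODE M21 (97.9% found) for positions and lengths. Counts were tested with edgeR 4.0.16 in R 4.3.3 (TMM scaling, filterByExpr with genotype as group, the quasi-likelihood F test and Benjamini-Hochberg adjustment across the 14057 genes kept). Log2 CPM used a prior count of 2, and correlations used scipy 1.17.1. Alternatives were DESeq2 1.42.0, limma 3.58.1 with quality weights, other scaling and filters, covariates, a replicate block and each tumor left out. Deviations of same-numbered tumors of both genotypes had r of 0.44, 0.11 and 0.16, each above 0.1. Bcl6 2 correlated more with Smc3/Bcl6 3 (r = 0.36) than with its own number. No label says that equal numbers mark pairs, and these values do not establish it. The numbers were taken as pairs only in the replicate block, an alternative, and the main fits were unpaired. On simulated data edgeR recovered 81% of 200 genes changed by 3 log2 units between genotypes among 14126 genes. With a slope of 1 it recovered 94.5% on Cd3e among 14093 genes and 87% on Csf1r among 14192. The changed genes were drawn from tested genes other than the ligands. The ligands had larger SEs between genotypes (median 1.25 against 0.46 over all genes), so these rates do not apply to them. The ligands, gene lists, motifs and naming rule (members, markers, receptors, at most 4 genes per list, 3 nearest genes per ligand) were chosen with earlier results of these data known. Tumors are separate samples per the labels. The floors cover counting error only, whereas the SEs and SDs also hold the spread between tumors. Values of 2 other genes are not reported here.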

Additional observations from a re-analysis of the deposited data

Results flagged for a closer look

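Among 17 genes examined in the 6 Smc3/Bcl6 tumors (the 9 tested ligands, Cd3e, Csf1r and 6 receptors), 1 had a tumor far from the others. The gap of Ccl22 in Smc3/Bcl6 6 to the next tumor was 0.650 of the range of the 6 tumors on the log2 scale, above the critical value of Dixon's test. Ccl22 was 51.4 CPM there and 2.32 to 6.996 CPM in the other 5 Smc3/Bcl6 tumors. Chance flags about 1 in 20 such groups, and 17 were examined. In the same tumor Cxcr3 was 196 CPM, the highest of the 9, and Ifng was 0.266 CPM, the lowest, and their part in the level of Ccl22 was not tested.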

How the results depend on the processing

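The number of ligands called between genotypes was 0 in edgeR and became 5 with limma and quality weights, 3 with the replicate block, 1 with Cd3e and Csf1r as covariates, and 0 to 1 with each tumor left out (Ccl17 without Bcl6 1, when both other Bcl6 tumors had 0 counts, and Ccl1 without Bcl6 3). The other alternatives gave 0. The number that followed Cd3e was 4 and became 0 with the tissue label, 0 with the replicate block, 0 with a term for the 2 sets of tumors (with or without genotype, both chosen after seeing the data), 7 with Csf1r in the fit, and 1 to 4 with each tumor left out, where 1 came without Bcl6 1 and 2 without Bcl6 2, Bcl6 3, Smc3/Bcl6 2, Smc3/Bcl6 3 or Smc3/Bcl6 6. Cxcl10 joined the 4, making 5, without the filter (1.25% of all genes called) and with DESeq2 (5.74%). The same 5 were called with limma (5.97%) and with the mean of the T-cell markers (2.38%). Without the genotype term 4 were called (2.95% of all genes), with Cxcl10 in place of Ccl2. The number that followed Csf1r was 0 in all 19 alternatives, where at most 2.02% of all genes were called (DESeq2). Over all genes, 302 were called between genotypes, against 1388 without the filter on low counts (26445 genes tested), 1644 with limma, 492 with both markers as covariates and 159 to 624 with each tumor left out, and 314 followed Cd3e, against 807 with DESeq2, 839 with limma, 8 with the tissue label, 38 with the replicate block and 51 to 419 with each tumor left out. The cause of these changes was not tested. Log2 fold changes that turned sign were those of Ccl3 with DESeq2 size factors (0.0091) and with DESeq2 (0.0097), of Ccl2, Ccl4 and Ccl12 with limma (-2.07, -1.96 and -1.49), of Ccl2 and Ccl3 with the tissue label (-0.0689 and 0.030), of Ccl3, Ccl22, Cxcl9 and Cxcl10 with the replicate block (0.78, -0.75, 0.78 and 0.31), and of Ccl3, Ccl5, Ccl22, Cxcl9 and Cxcl10 with both markers as covariates (0.21, 0.73, -0.63, 0.83 and 0.34). With each tumor left out, log2 fold changes ranged from -0.44 to 0.62 for Ccl2, -1.14 to 0.30 for Ccl3, -1.26 to 0.32 for Ccl4, -0.74 to 1.03 for Ccl22, -0.73 to 0.90 for Cxcl9 and -1.03 to 0.48 for Cxcl10. Slopes on Cd3e that turned sign were those of Ccl1 with the tissue label (0.15) and with Csf1r in the fit (0.10), of Ccl2, Ccl3, Ccl4, Ccl5, Ccl12, Cxcl9 and Cxcl10 with the replicate block (-0.13, -0.99, -0.75, -0.0715, -0.17, -0.29 and -0.33), of Ccl2, Ccl3, Ccl4, Ccl22, Cxcl9 and Cxcl10 with the set term (-0.42, -1.03, -0.93, 0.93, -0.41 and -0.44), and without genotype also of Ccl12 (-0.42, -0.77, -0.66, 0.86, -0.40, -0.32 and, for Ccl12, -0.0296). With each tumor left out, the slope of Ccl1 ranged from -0.34 to 0.37. Correlations with Csf1r turned sign without the 2 tumors farthest from its median for Ccl2 (-0.59), Ccl5 (-0.62), Ccl12 (-0.69), Cxcl9 (-0.53) and Cxcl10 (-0.46), and within the 6 Smc3/Bcl6 tumors for Cxcl9 (-0.0895) and Cxcl10 (-0.12).

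With 3 Bcl6 tumors, the SEs of the genotype differences were above 1 log2 unit for all 9 tested ligands in edgeR. Ccl1, Ccl2, Ccl12 and Ccl17 had under 10 counts in several tumors, so their levels there are near the floor of 3 counts. The tissue label, the replicate number and Cd3e overlap, since replicate 1 of both genotypes is the only one labeled as mesenteric and both had little Cd3e.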
